A study of Mus musculus with 28 samples.

Results

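Transfer RNA reads other than those of glycine and glutamate were measured in mouse sperm across alcohol doses and Nrf2 genotypes. The annotated structural RNA names that begin with tRNA- were taken, the names for glycine and glutamate were set aside, and the annotated copies of each name were summed. This left 53 isoacceptor names of 59 tRNA names, and of 47562 named features of all classes, in each of 28 libraries. The 53 names covered 19 amino acids, selenocysteine included. In a name such as tRNA-Val-GTG the last letters are the codon that the tRNA reads, and Y stands for C or T. Names that end in _ or (m), marks without a definition in the sources used here, were kept as separate entries.

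A tRNA carries 1 kind of amino acid to the ribosome and reads the codons for it in the messenger RNA. Ribonucleases can cut tRNAs within the anticodon loop or near the ends, and small RNA libraries of mature mouse sperm are known to be rich in such tRNA fragments, of which those of glycine and glutamate are the best known. Part of the sperm pool is known to be acquired while sperm pass through the epididymis.

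The study asked how a male's alcohol exposure is reflected in the small RNA of his sperm. Wild-type (WT) sperm came from a control group without alcohol (4 libraries), from a low dose of alcohol (4), a medium dose (2) and a high dose (2). A second genotype was Nrf2 -/-, which lacks the stress-response transcription factor encoded by Nfe2l2, with a control group (4) and an ethanol group (4). The last pair were Nrf2 Flox mice (4), which carry floxed Nrf2, and Nrf2 LKO mice (4), which carry floxed Nrf2 and Albumin-Cre. The Albumin promoter drives Cre in hepatocytes, so LKO is a deletion in the liver and does not target the gene in sperm, and neither of these groups was labelled as given alcohol. The amounts of alcohol, the duration, the animals' ages and whether each library is 1 animal were not given, so every p-value below measures the spread between these libraries only. WT, Nrf2 -/- and flox libraries were deposited in separate tables, so genotype and table cannot be told apart, and differences between these sets are described without a test.

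Total counts per library spanned 1993933 to 11119711 (WT), 3922109 to 6448390 (Nrf2 -/-) and 2567463 to 4394714 (flox and LKO). A Wilson 95% interval was at most 0.0488 percentage points wide on either side for the summed share of all counts, and covers counting error only. The 9 sperm and spermatid markers, which include the protamines Prm1 and Prm2, were above 0 in all 28 libraries, and edgeR called 0 of them in every comparison. It also called 0 genes of leukocytes (summed exon level 2.48 to 28.8 CPM over the 28 libraries, where CPM is counts scaled to a library total of 1000000), of smooth muscle and fibroblasts (12.6 to 328) and of hepatocytes (0.141 to 169). Nfe2l2 exon counts were 4 to 47 in WT libraries, 0 to 20 in Nrf2 -/- libraries and 0 to 22 in the flox set. They check no label, since the deleted part of the gene is not given. WT control 1 stood apart from the other libraries, with tRNA names taking 75.2% of its counts against 21.5% to 27.4% in controls 2 to 4, so the main isoacceptor results in WT are also given without it.

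Many isoacceptors have near-identical gene copies, so their counts rest on how the authors treated reads that match several copies, which was not given. The 53 names had 1111, 796 and 733 annotated copies in the WT, Nrf2 -/- and flox tables, and 5 names had a single copy. At least 2 leading copies lay within 1% of each other in 23, 22 and 21 isoacceptors. For Val-GTG in the WT table, 5 near-equal copies held 96.4% of the counts. For Lys-AAA, 6 such copies held 99.0%. Sums over copies are therefore levels on the authors' scale, and comparisons within a table share that scale.

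Over the 28 libraries pooled, valine tRNA had the highest mean, 4.34% of all counts (range 1.16% to 16.2%, the top value being WT control 1). In the flox set leucine (2.36%) and aspartate (2.28%) had higher means than valine (1.95%), so this order did not hold in all 3 sets. In the pooled means leucine followed with 2.14%, lysine with 1.93%, aspartate with 1.83%, serine with 1.60% and cysteine with 1.50%. These 6 amino acids lay above the other 13, of which selenocysteine (0.529%), alanine (0.527%) and methionine (0.464%) came next. Neighbours in this order overlapped widely: leucine ranged from 0.994% to 3.25%, lysine from 0.737% to 4.10%, aspartate from 0.993% to 3.15%, serine from 0.557% to 2.82% and cysteine from 0.759% to 4.52%. Glutamine (0.135%), histidine (0.126%), threonine (0.111%), arginine (0.110%), tryptophan (0.0771%), proline (0.0669%) and isoleucine (0.0556%) formed the middle. Asparagine (0.0292%), phenylalanine (0.0257%) and tyrosine (0.00775%) were the lowest. Leucine had 7 isoacceptor names, serine and arginine 6 each and threonine 5, whereas aspartate, cysteine, histidine and tryptophan had 1 each. A link between the number of names and this order was not tested.

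Within an amino acid a few isoacceptors held most of the counts. Val-GTG, which reads a valine codon ending in G, had the highest pooled mean of all 53, at 2.98% of all counts (0.756% to 11.1%, the top value being WT control 1), and Val-GTY had 1.16%. In the flox set Asp-GAY (2.28%) was above Val-GTG (1.37%). The third valine entry, Val-GTA, had 0.195%. The remaining entries of the 10 most abundant were Asp-GAY (1.83%), Cys-TGY (1.50%), Lys-AAA (1.29%), Leu-CTY (1.03%), Lys-AAG (0.642%), the selenocysteine entry SeC(e)-TGA (0.529%), Ser-AGY (0.472%) and Ser-TCY (0.464%). Initiator methionine, Met-i, which starts translation, had 0.413%, whereas the entries Met_ and Met had 0.0479% and 0.00271%. At the low end, Thr-ACG_ never exceeded 51 counts and Tyr-TAT never exceeded 12, with Tyr-TAT above 0 in 18 of 28 libraries. Tyr-TAT did not pass the filter on low counts, which left 52 isoacceptors in each test.

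The make-up differed between the 3 sets, which also differ in genotype and table. As a share of tRNA counts, valine had a mean of 13.8% in the 12 WT libraries, 23.6% in the 8 Nrf2 -/- libraries and 5.54% in the 8 libraries of the flox set. Lysine followed the same order with 5.50%, 11.9% and 3.07%. Cysteine was 3.51%, 8.73% and 3.81%. Leucine (7.71%, 6.64% and 6.91%) and aspartate (5.87%, 6.08% and 6.75%) lay closer together, so the spread between sets was uneven over the amino acids. Methionine was 1.96%, 2.20% and 0.437%, and asparagine 0.199%, 0.0181% and 0.0429%.

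**Figure D1:**
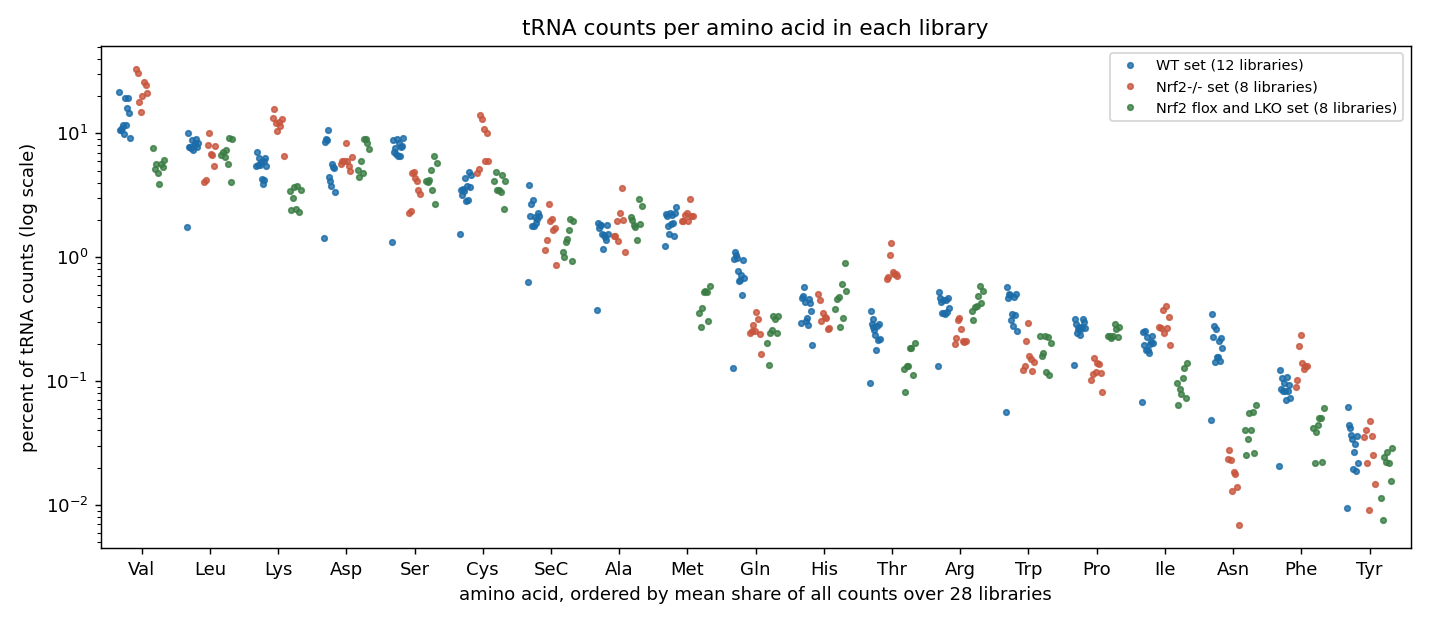
Share of tRNA counts (percent, log axis) taken by each of the 19 amino acids in every library, with 1 colour for each set (12 WT, 8 Nrf2 -/- and 8 flox or LKO libraries). Valine spans 3.87% to 33.2%, with the flox set lowest and the Nrf2 -/- set highest by their means, whereas leucine and aspartate have closer means in the 3 sets.

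Summed over the 53 names, these tRNAs took 27.3%, 13.8%, 14.4% and 11.9% of all counts in WT controls 1 to 4. In the low dose the values were 14.1%, 12.5%, 15.7% and 17.4%, in the medium dose 16.4% and 15.1%, and in the high dose 15.9% and 14.2%. The control mean was 16.8% ± 7.03 (SD, n = 4) and the low-dose mean 14.9% ± 2.09 (SD, n = 4), so the groups overlapped. Without control 1 the control mean was 13.4% ± 1.35 (SD, n = 3), below the low-dose mean, and both medium-dose libraries then lay above all controls. Nrf2 -/- controls had 17.9%, 16.7%, 23.5% and 22.8%, and Nrf2 -/- ethanol libraries 12.0%, 18.1%, 16.6% and 20.5%. Nrf2 Flox libraries had 10.0%, 13.0%, 11.5% and 12.7%, and Nrf2 LKO libraries 15.7%, 13.8%, 12.3% and 10.9%. With all libraries kept, each treated or LKO group overlapped its own control on this measure.

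Measured against tRNA counts alone, the order of the sets was clearer. The 53 names made up 36.3% of tRNA counts in WT control 1, where glycine tRNA took 27.6% and glutamate tRNA 20.4% of all counts (4.55% to 6.81% and 3.83% to 6.12% in controls 2 to 4), and 47.7% to 60.6% in the other 11 WT libraries. In the Nrf2 -/- set they made up 69.1% to 72.5% in 7 libraries and 57.3% in ethanol replicate 4, where glutamate took 13.0% of all counts. The column of that library is named differently from those of the other ethanol libraries, and the label was followed. In the flox set the range was 30.4% to 46.4%, with LKO libraries (32.8% to 36.3%) inside the range of flox libraries.

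**Figure D2:**
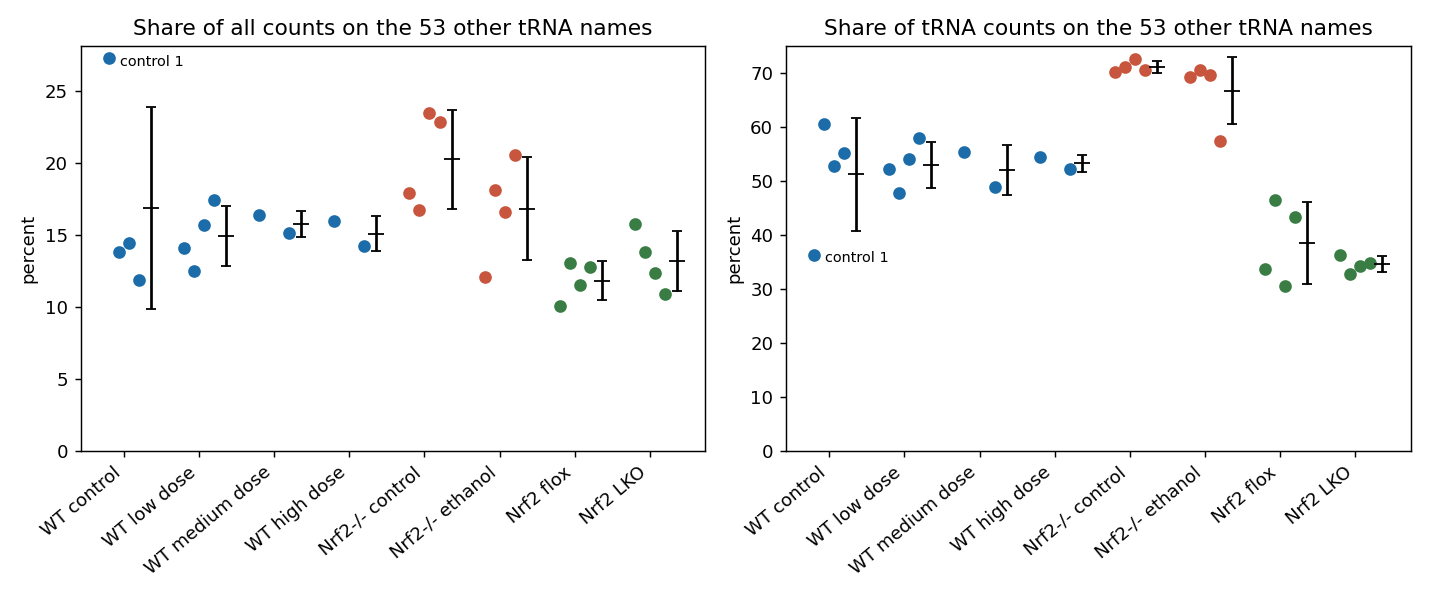
The summed share of the 53 isoacceptors in each library by group, as a percent of all counts (left) and of tRNA counts (right), with a point for each library and a black bar for the group mean ± SD. WT control 1 is the highest point of all counts (27.3%) and lies under every other WT library as a share of tRNA counts (36.3%).

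In WT control 1 the excess was carried by few amino acids. Valine took 16.2% of all counts there against 2.36% to 2.89% in controls 2 to 4, a ratio of 6.33 to their mean. For lysine, the values were 4.10% against 1.36% to 1.60%, a ratio of 2.75. Methionine, histidine, proline and cysteine were also above the other controls, with ratios of 1.86, 1.84, 1.49 and 1.44, whereas 11 amino acids lay below them and threonine and arginine lay inside their range. Among the isoacceptors, 13 were above controls 2 to 4, 31 below and 9 inside. Val-GTY (7.24 times their mean), Val-GTG (6.50), Lys-AAG (3.48) and Lys-AAA (2.35) had the highest ratios, and Leu-TTA(m) (0.0682), Gln-CAA_ (0.0952) and Ser-TCA(m) (0.120) the lowest. As a share of tRNA counts, valine alone was above the other controls (21.5% against 10.6% to 11.0%), and the other 18 amino acids were below. Every marker list had its lowest control sum in this library: sperm 238 CPM against 461 to 513, epididymis 236 against 410 to 630, smooth muscle and fibroblasts 12.6 against 24.6 to 50.7, leukocytes 2.61 against 9.67 to 15.0, hepatocytes 0.450 against 2.78 to 4.01 and red blood cells 1.80 against 3.37 to 13.0. These sums are scaled to all counts, of which tRNA names took 75.2% in control 1 and 21.5% to 27.4% in controls 2 to 4. A low sum in control 1 therefore need not mean fewer marker reads among the reads outside tRNA. The part of the markers in the tRNA values was not tested.

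At the low dose, no isoacceptor passed the test against WT controls. With edgeR's quasi-likelihood test and Benjamini-Hochberg adjustment over all features other than miRNAs, 0 of 52 isoacceptors and 0 of 19 amino acids had an adjusted p under 0.05, against 0.0613% of all 17937 features tested (0.0391% in the fit of amino acid sums). DESeq2 also called 0 isoacceptors (0.34% of the features it tested). At an unadjusted p under 0.05 there were 16 isoacceptors, all with lower values in the low dose, against 2.48% lower and 7.46% in either direction of all features. Lower fitted levels were seen for 41 of 52 (49.5% of all features), with a median log2 fold change of -0.40 against 0.00 for all features. In these bulk libraries, fewer cells of a type and less RNA per cell cannot be told apart.

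Without WT control 1, 27 were higher and 25 lower (51.2% of all features higher). The median was then 0.00, and 0 isoacceptors (0% of all features) and 0 amino acids were called. An unadjusted p under 0.05 was found for 13 isoacceptors (6.73% of all features), 4 higher (4.62%) and 9 lower (2.11%). Scaled to total counts in place of TMM, with control 1 kept, 20 were higher and 32 lower.

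**Figure D3:**
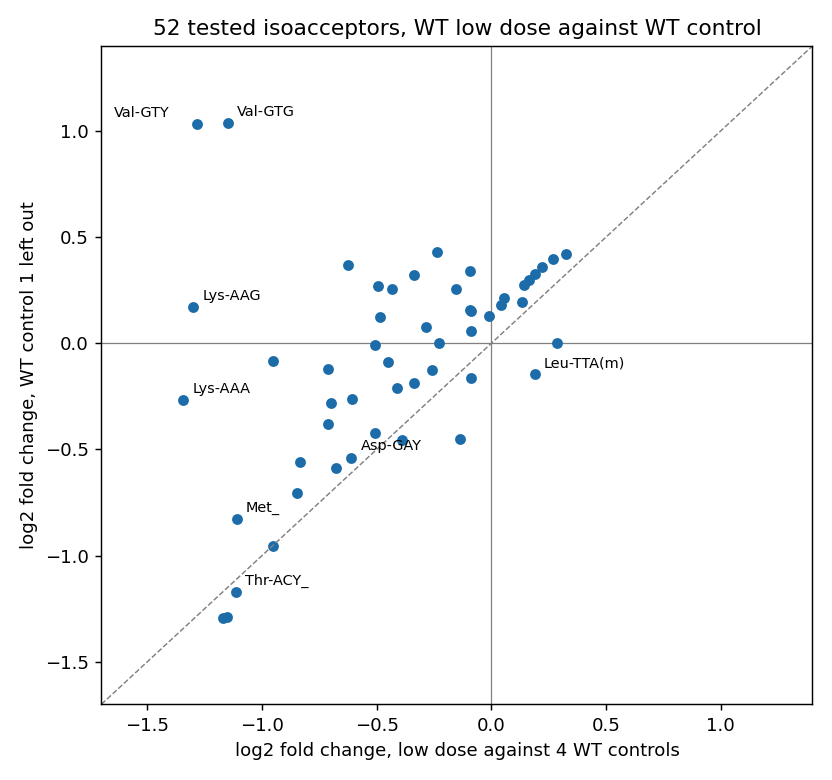
Fitted log2 fold change of the 52 tested isoacceptors, WT low dose against WT control, with all 4 controls on the x axis and without control 1 on the y axis, and a dashed line where both are equal. Val-GTG lies at -1.15 on the x axis and 1.04 on the y axis, while Thr-ACY_ is below 0 on both (-1.11 and -1.17).

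For valine the direction depended on that library. Val-GTG took 11.1%, 1.62%, 1.94% and 1.56% of all counts in controls 1 to 4, and 3.62%, 2.11%, 3.20% and 4.07% in the low dose. The 4 low-dose libraries were above controls 2 to 4 and below control 1. Its log2 fold change was -1.15 ± 0.64 (SE) with control 1 and 1.04 ± 0.19 without it, and edgeR's Benjamini-Hochberg adjusted p was 0.753 and 0.138. The fitted log2 fold changes of Val-GTY were -1.28 ± 0.66 and 1.03 ± 0.20. Without control 1, these were the 2 isoacceptors of 52 whose low-dose libraries all lay above the controls, a share near the 3.13% of all features. The third valine entry, Val-GTA, was not among them (0.12 ± 0.19).

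On the lower side without control 1 were 7 isoacceptors, against 5.37% of all features: Ala-GCY, Asp-GAY, Gln-CAA_, Met, Thr-ACG_, Thr-ACY and Thr-ACY_. Thr-ACY_ had 11.4, 29.6, 32.1 and 32.4 CPM in controls 1 to 4 and 10.3, 10.8, 20.6 and 10.3 in the low dose. Control 1 was as low as the treated libraries, so the groups overlapped only through it. The log2 fold change was -1.11 ± 0.28 (SE), with an adjusted p of 0.182 by edgeR, the lowest of the 52 in this comparison, and -1.17 ± 0.30 without control 1. Met had 27.3, 69.4, 74.7 and 48.4 CPM against 26.7, 19.4, 45.8 and 31.0 (log2 fold change -0.95 ± 0.25, edgeR adjusted p 0.196, and -0.96 ± 0.26 without control 1). The entry Met_ had 723, 1056, 986 and 658 CPM against 472, 306, 714 and 392 (-1.11 ± 0.30, edgeR adjusted p 0.217, and -0.83 ± 0.27 without control 1), and here the groups overlapped. Not all entries of these amino acids were low: without control 1, Thr-ACA (-0.01 ± 0.19), Thr-ACG (-0.46 ± 0.26) and Met-i (0.37 ± 0.22) overlapped controls 2 to 4.

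Aspartate, read by Asp-GAY alone, took 1.08%, 1.96%, 2.45% and 1.89% of all counts in the controls and 1.13%, 0.993%, 1.64% and 1.60% in the low dose. Its log2 fold change was -0.61 ± 0.25 (edgeR adjusted p 0.539) with all controls and -0.54 ± 0.21 without control 1. Serine, whose tRNAs read codons of 2 unrelated families, took 0.999%, 2.01%, 1.95% and 1.65% against 1.78%, 2.21%, 1.90% and 2.34%, which overlapped. Leucine likewise overlapped, with 1.31%, 2.31%, 2.12% and 1.67% against 2.00%, 2.07%, 2.41% and 2.68%.

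Markers of other cells moved with this comparison. Red blood cell genes, which encode haemoglobin chains and the haem enzyme Alas2, summed to 1.80, 3.37, 4.01 and 13.0 CPM in controls and to 62.0, 63.0, 39.1 and 34.7 CPM in the low dose, and 4 of 4 tested genes rose (median log2 fold change 3.02). All 5 listed red blood cell genes were above 0 in each low-dose library. Epididymis markers summed to 236, 410, 630 and 565 CPM in controls and 370, 148, 411 and 222 in the low dose, which overlapped. All 5 tested epididymis genes had lower fitted levels (median log2 fold change -1.21, none called). The epididymal genes Cst11 and Spint4 were at 0 in all libraries of both groups. Leukocyte genes summed to 2.61, 9.67, 15.0 and 10.7 CPM in controls and 14.7, 6.84, 20.7 and 22.5 in the low dose, which overlapped, and all 3 tested had fitted levels above 0 (median 1.38, none called). Their part in the tRNA values was not tested.

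**Figure D4:**
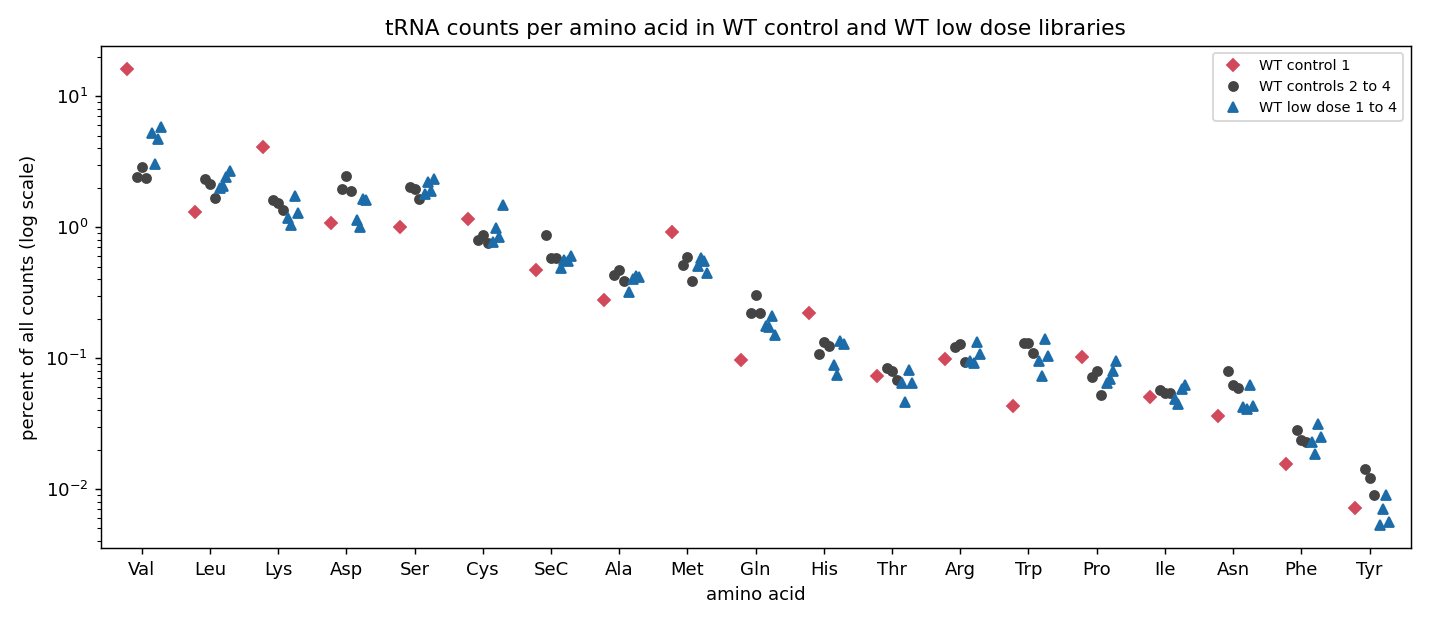
Percent of all counts (log axis) taken by each of the 19 amino acids, with a diamond for WT control 1, circles for controls 2 to 4 and triangles for the 4 low-dose libraries. For valine the low-dose points (3.06% to 5.78%) lie between control 1 (16.2%) and the other controls (2.36% to 2.89%).

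In the medium dose, with 2 libraries, 12 of 52 isoacceptors lay above all 4 controls in both (5.94% of all features): Ala-GCA, Arg-AGG, Arg-CGG, Ile-ATT, Leu-CTA, Leu-TTA, Leu-TTG and the serine entries Ser-AGY, Ser-TCA, Ser-TCA_, Ser-TCG and Ser-TCY. Ser-AGY took 0.845% and 1.02% of all counts in the medium dose against 0.320%, 0.690%, 0.703% and 0.522% in controls (log2 fold change 0.71 ± 0.28, edgeR adjusted p 0.943, and 0.78 ± 0.24 without control 1). None passed: edgeR called 0 of 52 isoacceptors (0% of all features) and 0 of 19 amino acids, DESeq2 called 0, and 5 isoacceptors had an unadjusted p under 0.05 (4.74% of all features), 2 higher (1.86%) and 3 lower (2.89%). The median log2 fold change was -0.03 against 0.00 for all features, with 22 higher and 30 lower (49.7% of all features lower). Without control 1 the split was 40 higher and 12 lower (50.6% of all features higher) with a median of 0.35. An unadjusted p under 0.05 was found for 22 (5.91% of all features), 21 higher (2.96%) and 1 lower (2.95%). In that fit 0 isoacceptors (0% of all features) and 0 amino acids were called. All treated libraries then lay above the controls for 16 isoacceptors (6.12% of all features) and below them for Asp-GAY, Thr-ACY and Thr-ACY_ (18.6%). Scaled to total counts the split was 36 higher and 16 lower.

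The other lowest p-values at the medium dose rested on control 1. His-CAY_ took 0.108% and 0.0610% of all counts against 0.223%, 0.107%, 0.132% and 0.124% (log2 fold change -1.17 ± 0.50, and -0.30 ± 0.25 without control 1). Lys-AAG took 0.561% and 0.325% against 1.83%, 0.535%, 0.552% and 0.489% (-1.51 ± 0.67, and -0.03 ± 0.26 without control 1). Both overlapped the controls, and edgeR's adjusted p was 0.943 for each. The library labelled medium dose 1 has a column name of the kind used for the high-dose columns. The label was followed, and the effect of moving that library to the high dose was not tested.

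At the high dose, also with 2 libraries, 40 of 52 isoacceptors had lower fitted levels (45.5% of all features) and the median was -0.33 against 0.05 for all features. Without control 1, 29 were higher and 23 lower (58.5% of all features higher), and 2 had an unadjusted p under 0.05 (3.27%), both lower (1.11%). In that fit 0 isoacceptors (0% of all features) and 0 amino acids were called. Scaled to total counts, with control 1 kept, 28 were higher and 24 lower. edgeR and DESeq2 called 0 of the isoacceptors (edgeR 0% of all features) and edgeR called 0 of 19 amino acids, while 8 isoacceptors had an unadjusted p under 0.05, all lower (1.17% lower and 2.91% in either direction of all features). Leu-TTG, Ser-AGY and Ser-TCA(m) lay above all controls in both high-dose libraries (9.12% of all features). Without control 1 there were 4 above (9.3%) and 5 below (7.58%), which were Ile-ATA and the threonine entries Thr-ACG, Thr-ACG_, Thr-ACY and Thr-ACY_. Val-GTY took 0.900% and 0.704% of all counts against 4.84%, 0.627%, 0.758% and 0.621% in controls (log2 fold change -2.09 ± 0.89 with control 1 and 0.25 ± 0.23 without it). Lys-AAG took 0.619% and 0.364% against the control values above (-1.65 ± 0.68, and -0.15 ± 0.26 without control 1). Thr-ACG_ had 4.36 and 2.77 CPM against 1.98, 7.47, 9.53 and 5.42 CPM (-0.94 ± 0.40, and -1.05 ± 0.41 without control 1), from counts of 18 to 51 in these libraries. edgeR's adjusted p was 0.999 for all 3. Epididymis markers differed between the high-dose libraries, at 1897 and 306 CPM, and in the medium dose, at 544 and 97.4 CPM, and their part in these values was not tested.

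Over any dose, 2 rare threonine entries, Thr-ACY and Thr-ACY_, had the lowest p-values. Thr-ACA had a pooled mean of 0.0982% of all counts, against 0.111% for all threonine entries. Its log2 fold change was -0.35 ± 0.25 (SE) with all controls and 0.16 ± 0.17 without control 1. The threonine sum had -0.39 ± 0.23 and -0.02 ± 0.17. Thr-ACY had 14.0, 51.7, 50.2 and 43.3 CPM in controls, 15.1, 14.0, 28.9 and 15.7 in the low dose, 34.0 and 8.73 in the medium dose and 33.4 and 15.8 in the high dose. All 8 treated libraries were below controls 2 to 4, and control 1 was among the treated libraries. The log2 fold change was -1.0 ± 0.28 (edgeR adjusted p 0.965), and -1.11 ± 0.29 without control 1. Thr-ACY and Thr-ACY_ were the 2 isoacceptors with all 8 treated libraries below controls 2 to 4, against 1.04% of all features. Thr-ACY_ had 24.3 and 8.73 CPM in the medium dose and 24.4 and 14.6 in the high dose (-0.84 ± 0.24 over any dose, edgeR adjusted p 0.965, and -0.88 ± 0.26 without control 1). The remaining entry, Lys-AAG, went from -1.49 ± 0.44 to -0.00 ± 0.19 without control 1. edgeR called 0 of 52 (0% of all features) and 0 of 19 amino acids, DESeq2 called 0 isoacceptors (0.00558% of the features it tested), and 15 had an unadjusted p under 0.05, all lower (1.65% lower and 4.24% in either direction of all features). Of the 52, 15 were higher and 37 lower with all controls (50.5% of all features lower), and 28 higher and 24 lower when scaled to total counts. Without control 1, 30 were higher and 22 lower (51.8% of all features higher). Then 16 had an unadjusted p under 0.05 (4.43% of all features), 12 higher (2.95%) and 4 lower (1.48%), and 0 isoacceptors (0% of all features) and 0 amino acids were called. The dose comparisons share the controls, so they are not independent of each other.

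In Nrf2 -/- sperm, ethanol gave no called isoacceptor, and the 4 controls were unlike each other. edgeR called 0 of 52 isoacceptors (0% of all features) and 0 of 19 amino acids, DESeq2 called 0 isoacceptors (0.182% of the features it tested), and 1 isoacceptor had an unadjusted p under 0.05 (4.83% of all features), which was higher (2.82%). In simulated counts for 8406 features in this comparison, 0% of those changed 4-fold were recovered. The changed features were drawn at random from all features tested, so this is not a recovery rate for isoacceptors. Of the 52, 35 were lower and 17 higher, against 64.7% lower of all features, with a median of -0.12 against -0.27 for all features. This split depended on the setting. Scaled to total counts, 42 were lower and 9 higher. Without control 4 it turned to 13 lower and 39 higher (median 0.17), and without ethanol replicate 4 to 24 lower and 28 higher. With the replicate number as a block, 20 were lower and 32 higher (median 0.06).

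Cysteine tRNA took 1.23% and 1.21% of all counts in Nrf2 -/- controls 1 and 2 but 4.52% and 4.24% in controls 3 and 4. The ethanol libraries lay between, at 1.88%, 1.55%, 2.40% and 2.15%. Leucine (1.03%, 0.994%, 2.61% and 3.25%), serine (0.577%, 0.557%, 1.55% and 1.58%) and threonine (0.172%, 0.162%, 0.338% and 0.424%) showed the same arrangement in the controls. Valine was arranged the other way, with 8.50%, 7.19%, 5.77% and 4.86%, against 3.51%, 6.73%, 5.84% and 7.57% with ethanol. In all, 14 of 19 amino acids were lower in controls 1 and 2 than in controls 3 and 4, and valine and tyrosine were higher. Of the 53 isoacceptors 35 were lower and 13 higher, against 27.4% lower and 54.9% higher of the features other than miRNA with a mean of at least 10 counts. All these are shares of all counts, miRNAs included, and depend on that denominator. As a share of all counts except miRNA, the summed isoacceptors were level, at 30.5%, 31.1%, 29.9% and 29.5% in controls 1 to 4. Epididymis markers summed to 1591 and 1327 CPM in controls 1 and 2 and to 52.3 and 36.6 in controls 3 and 4, with 10 of 11 above 0 in at least 1 control, and to 189 to 438 with ethanol. Sperm markers summed to 169 and 210, against 729 and 928, and to 213.7, 282, 251 and 292 with ethanol. Their part in the tRNA values was not tested. Without controls 1 and 2 together, a choice made after seeing the data, edgeR called 5 of 52 isoacceptors, against 22.4% of all features in that fit: Ala-GCA, Arg-CGA_, Arg-CGG and Trp-TGG were lower and Ile-ATA higher.

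Leu-TTA(m) had the lowest p, with 71.4, 77.9, 70.4 and 43.4 CPM in the Nrf2 -/- controls and 129, 156, 107 and 70.7 with ethanol. Only ethanol replicate 4 was inside the range of the controls. The log2 fold change was 1.20 ± 0.47 (SE), with an adjusted p of 0.767 by edgeR, the same as for the next 2. Ile-ATA had 76.4, 73.5, 28.8 and 19.5 against 55.9, 76.3, 46.8 and 68.2 CPM (0.78 ± 0.45). Ala-GCY took 0.257%, 0.239%, 0.511% and 0.280% of all counts against 0.275%, 0.835%, 0.400% and 0.312% (0.78 ± 0.59), with ethanol replicate 2 the highest.

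As a share of all counts, 5 isoacceptors were lower in all 4 ethanol libraries than in all 4 controls, against 4.76% of all features: Arg-AGA, Arg-CGY_, His-CAY_, Lys-AAG and Met_. Lys-AAG took 1.33%, 1.33%, 1.03% and 0.909% against 0.639%, 0.892%, 0.883% and 0.766%. Its fitted log2 fold change on the TMM scale was -0.17 ± 0.43, a scale that differs from total counts. Met_ had 387, 401, 544 and 547 CPM against 314, 348, 376 and 229. None was higher in all ethanol libraries (0.59% of all features).

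Sperm of Nrf2 LKO mice had more tRNA isoacceptors with higher than with lower fitted levels than Nrf2 Flox sperm, and edgeR called 0 isoacceptors in this comparison and DESeq2 2. Fitted levels were higher for 38 and lower for 14 of 52 (50.6% of all features higher), with a median of 0.36 against 0.01 for all features. Scaled to total counts the split was 26 and 26, with a median of 0.01 against -0.29 for all features. On the TMM scale edgeR called 0 of 52 (0.0508% of all features) and 0 of 19 amino acids (0.051%). An unadjusted p under 0.05 was found for 18 isoacceptors (12.4% of all features), 16 higher (5%) and 2 lower (7.43%). That excess of higher entries depended on the scale. Scaled to total counts, edgeR gave 19 such isoacceptors, 9 higher and 10 lower, where the share over all features was not counted. DESeq2 called 2, Leu-CTG and Thr-ACY, with adjusted p of 0.0359 and 0.0416 (0.572% of all features it tested). Without LKO replicate 3, edgeR called 8 of 52 (1.94% of all features in that fit): Cys-TGY, Leu-CTA_, Leu-CTG, Ser-TCA_, Ser-TCY, Trp-TGG and Val-GTG rose and Thr-ACY fell.

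Thr-ACY had 26.1, 13.8, 21.4 and 19.4 CPM in flox and 4.28, 3.07, 13.0 and 5.09 in LKO libraries. The groups did not overlap, with LKO replicate 3 the nearest to flox, and the counts behind them were 58 to 94 and 10 to 45. The log2 fold change was -1.38 ± 0.34 (SE) and the edgeR adjusted p 0.119. The entry Met was also lower in all LKO libraries, with 13.6, 14.8, 17.3 and 26.6 against 5.50, 1.53, 11.9 and 7.40 CPM (-1.16 ± 0.38, edgeR adjusted p 0.210). With Arg-CGA these were the 3 isoacceptors below all flox libraries, against 7.34% of all features. Both are rare entries of their amino acids. The more abundant Met-i (0.40 ± 0.22) and Thr-ACA (0.32 ± 0.22) had higher fitted levels in LKO, whereas Met_, Thr-ACY_, Thr-ACG and Thr-ACG_ had lower ones. The methionine and threonine sums were 0.29 ± 0.22 and 0.11 ± 0.22.

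Leu-CTG took 0.0734%, 0.129%, 0.108% and 0.104% of all counts in flox and 0.186%, 0.186%, 0.132% and 0.136% in LKO libraries, and was the 1 isoacceptor above all flox libraries (0.498% of all features). Its log2 fold change was 0.94 ± 0.24 (edgeR adjusted p 0.123). Trp-TGG, the single tryptophan entry, had 355, 636, 425 and 593 CPM against 994, 677, 609 and 731 (0.93 ± 0.26, edgeR adjusted p 0.149), and LKO replicate 3 lay inside the flox range. By amino acid, 17 were higher and 2 lower, aspartate (-0.13 ± 0.22) and histidine. Valine took 1.16%, 1.58%, 2.04% and 1.78% of all counts against 3.31%, 2.18%, 2.05% and 1.51% (0.81 ± 0.26), and cysteine 0.996%, 1.30%, 0.930% and 1.20% against 1.77%, 2.05%, 1.26% and 1.09% (0.80 ± 0.23). In both, LKO replicate 4 lay inside the flox range and LKO replicates 1 and 2 were the highest. For cysteine LKO replicate 3 (1.26%) also lay inside the flox range. For valine it (2.05%) was just above the highest flox value (2.04%).

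Fitted levels of epididymis, smooth muscle and sperm markers lay mostly on 1 side of 0 in the same comparison. Epididymis markers summed to 649, 683, 826 and 638 CPM in flox and 194, 275, 503 and 160 in LKO libraries, with all 5 tested genes lower (median log2 fold change -1.22). Cd52, a surface glycoprotein gene of the epididymal epithelium, fell (-1.56 ± 0.28, edgeR adjusted p 0.0303), and Cst11 and Defb20 were at 0 in both groups. Smooth muscle and fibroblast genes summed to 215, 149, 328 and 152 CPM in flox and 97.1, 114, 157 and 109 in LKO, with all 6 lower (median -0.62, none called). Of the 9 sperm markers 8 had higher fitted levels in LKO (median 0.43, none called), while their sums overlapped, at 621, 669, 514 and 655 CPM in flox and 623, 736, 661 and 659 in LKO. LKO replicate 3, the nearest to flox for Thr-ACY, Leu-CTG and Trp-TGG, had the highest epididymis sum of the LKO libraries, whereas LKO replicate 4, the lowest of them for valine and cysteine, had the lowest. The part of these markers in the tRNA values was not tested.

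**Figure D5:**
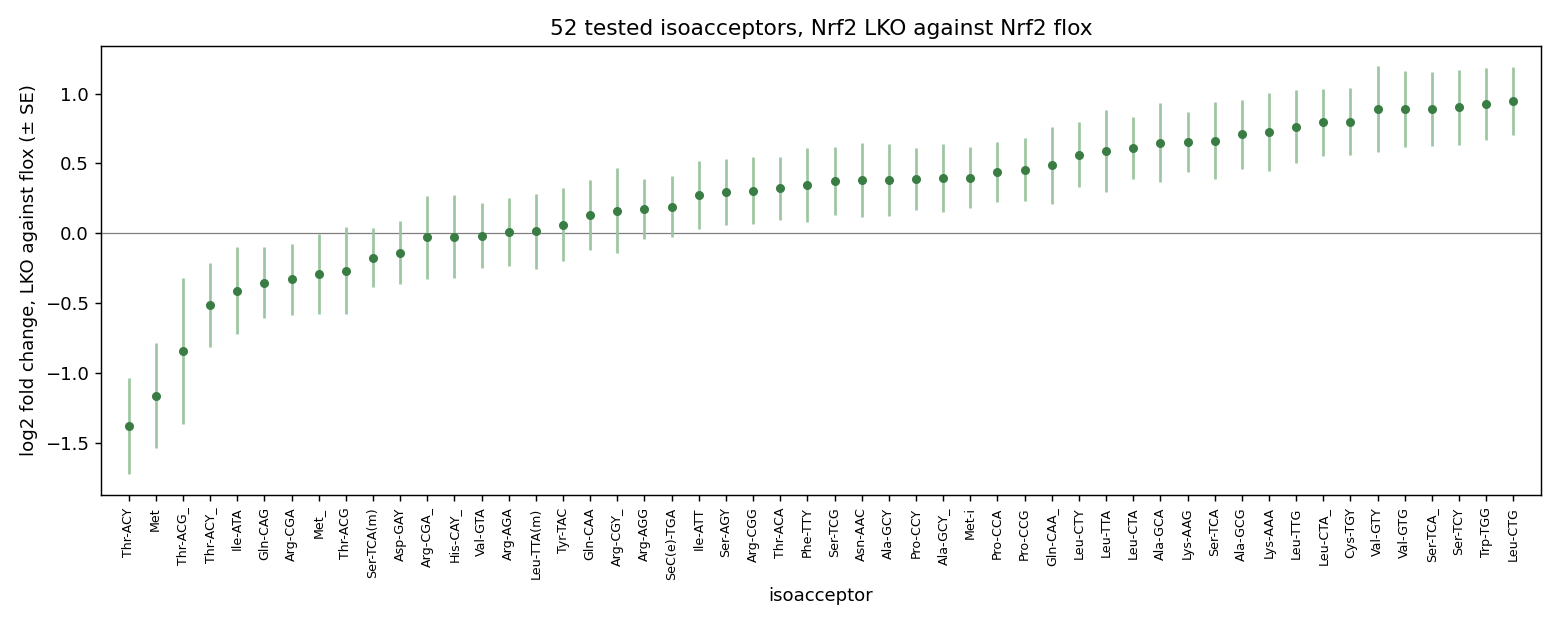
Fitted log2 fold change (± SE) of each of the 52 tested isoacceptors, Nrf2 LKO against Nrf2 Flox, in ascending order. More points lie above 0 (38) than below (14), from Thr-ACY (-1.38) to Leu-CTG (0.94), and with scaling to total counts the split is 26 and 26.

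Transcripts of enzymes that act on tRNAs were read from exon counts. Of 30 listed genes for tRNA cleavage, processing and modification, 15 were tested in the WT set and 8 in each of the others, and edgeR called 0 in every comparison. At an unadjusted p under 0.05 there were 0 at the low dose, 1 at the medium dose, 2 at the high dose, 0 over any dose, 0 in Nrf2 -/- and 2 in LKO, where all features gave 7.46%, 4.74%, 2.91%, 4.24%, 4.83% and 12.4%. Their median log2 fold changes were 0.09, -0.25, 0.34, 0.07, -0.46 and -0.33 in that order. The genes with the lowest p-values were Rtcb (-0.93), the tRNA ligase, and Trnt1 (1.15), which adds the CCA end to tRNAs, at the low dose. At the medium dose they were Trnt1 (1.42) and the tRNA 3' processing gene Elac1 (1.01), and at the high dose the RNase T2 genes Rnaset2b (1.65) and Rnaset2a (1.29). Over any dose they were Alkbh1 (-0.76), a tRNA demethylase gene, and Trnt1 (1.04). In Nrf2 -/- they were the tRNA cytosine methyltransferase gene Nsun2 (-0.68) and Rtcb (-0.70). In LKO they were Rnaset2a (-1.35) and Rnaset2b (-1.31), which are near-identical copies whose counts cannot be told apart here.

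Aminoacyl-tRNA synthetases load each amino acid onto its tRNA, and 18 of 19 listed were tested in WT, 11 in Nrf2 -/- and 9 in LKO. edgeR called none. Unadjusted p-values under 0.05 were found for 3, 1, 1, 1, 0 and 3 of them in the same order of comparisons, beside the same shares of all features, and the medians were -0.22, -0.58, 0.39, 0.01, -0.53 and -0.62. The valine enzyme gene Vars was -0.78 ± 0.30 at the low dose and -1.04 ± 0.39 at the medium dose, and the tryptophan enzyme gene Wars -1.10 ± 0.51 and -1.26 ± 0.65. At the high dose the arginine and serine enzyme genes Rars (1.63 ± 0.75) and Sars (0.94 ± 0.47) had the lowest p-values, and 17 of 18 were above 0, where 45.5% of all features were below it. Over any dose these were Vars (-0.61 ± 0.26) and Wars (-0.70 ± 0.43). In Nrf2 -/- all 11 were lower with ethanol (64.7% of all features lower), led by the glutamine enzyme gene Qars (-0.76 ± 0.42) and Vars (-0.88 ± 0.53). In LKO 8 of 9 were lower (50.6% of all features higher), led by Sars (-1.91 ± 0.53) and the asparagine enzyme gene Nars (-1.50 ± 0.50). Summed exon levels of these enzyme genes were 358 and 355 CPM in Nrf2 -/- controls 1 and 2 against 41.3 and 40.6 in controls 3 and 4. High-dose replicate 1 had 175 CPM against 43.5 in replicate 2. Within each of these groups the libraries with the higher level also had the higher epididymis sums. A link over all libraries was not tested.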

How the data were processed

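Small RNA was sequenced from sperm, from Trizol-extracted total RNA with the Qiaseq small RNA kit, per the labels' protocols. The authors deposited 3 tables of raw counts for each annotated feature, whole numbers with unequal totals. The aligner, the counting tool, the build and how reads matching several places were counted are not given in the sources used here, and no positions or sequences are printed. Columns were matched to libraries by the column names in the descriptions, and 0 sample columns were left out. The members, gene lists and tests were chosen with earlier results of these data known.

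Counts were summed per name within each of 8 feature classes. All features other than miRNAs were tested in R 4.3.3 with the two-sided quasi-likelihood test of edgeR 4.0.16 (filterByExpr, TMM, Benjamini-Hochberg adjustment at 0.05). The 12 WT libraries shared 1 fit, and any dose is the mean of the 3 dose groups. The other tables were fitted with their 8 libraries each. The amino acid fits replaced the isoacceptors by their sums. Shares and CPM (counts scaled to a total of 1000000) use all counts of a library, miRNAs included, whereas fold changes use TMM scaling, so the 2 can differ. Summed shares were not tested. Levels are named for each amino acid and the 10 most abundant isoacceptors. In each comparison the isoacceptors past the threshold were to be named, or the 3 with the lowest p, and for gene lists the 2 with the lowest p. Other members were chosen after their values were seen.

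Gene lists covered tRNA cleavage and processing, aminoacyl-tRNA synthetases, and markers of sperm, epididymis epithelium, red blood cells, leukocytes, smooth muscle and fibroblasts, and hepatocytes. Alternatives were DESeq2 1.42.0, scaling to total counts, no filter, a threshold of 0.1, a replicate block, only the groups compared, each library left out, other denominators and, after seeing the data, the highest copy in place of the sum and the omission of Nrf2 -/- controls 1 and 2. In simulated counts with 100 features changed 2-fold and 100 changed 4-fold, 9% and 68% were recovered for the low dose (16454 features) and 18% and 68% for LKO (8813 features). False calls were 1 of 78 and 9 of 95. The changed features were drawn at random from all features tested, so these are not recovery rates for isoacceptors. Python 3.11.15, pandas 2.3.3 and matplotlib 3.10.9 were used for sums and figures.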

Additional observations from a re-analysis of the deposited data

Results flagged for a closer look

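In 6 of 126 groups of 4 libraries, 1 library lay far from the other 3, judged by its gap to the nearest divided by the group's range. Chance gives about 1 in 20 such groups. WT control 1 was the library in 3 of them: the 53 isoacceptors took 27.3% of all counts there (11.9% to 14.4% in controls 2 to 4), valine 16.2% (2.36% to 2.89%) and lysine 4.10% (1.36% to 1.60%). As a share of tRNA counts, the isoacceptors made up 57.3% in Nrf2 -/- ethanol replicate 4, against 69.1% to 70.4% in replicates 1 to 3. Alanine took 0.936% of all counts in Nrf2 -/- ethanol replicate 2, against 0.396% to 0.477%. Asparagine took 0.0618% in WT low-dose replicate 3, against 0.0409% to 0.0433%.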

How the results depend on the processing

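Of 688 recomputed values, 293 counts, medians and shares stayed within a set limit of the reported value and 25 moved. The limit was a ratio for counts, the median SE of the isoacceptors for medians and the larger group SD for shares. A sign could change within it, as the summed shares of the WT comparisons did without control 1. Of the values of single isoacceptors and amino acids, 348 kept direction and side of the threshold, 19 passed it and 3 reversed. The cause of the changes below was not tested. Without WT control 1, Val-GTG at the low dose reversed to 1.04 and, at the high dose, Val-GTY and the valine sum reversed to 0.25 and 0.25. The median log2 fold change of the isoacceptors then became 0.0015 (low), 0.35 (medium), 0.072 (high) and 0.17 (any dose). Scaled to total counts it was -0.11 (low), 0.070 (high), 0.032 (any dose) and 0.012 (LKO), where the medians of all features stood at 0.17, 0.40, 0.19 and -0.29, and at 0.07 for the medium dose and -0.53 for Nrf2 -/-. Without high-dose replicate 2 the high-dose median was -0.70.

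With no filter on low counts, edgeR called 7 isoacceptors and 2 amino acids at the low dose (0.342% and 0.322% of all features in those fits), 2 and 0 at the medium dose (0.119% and 0.115%), 3 and 1 at the high dose (0.0595% and 0.0551%), 5 and 3 over any dose (0.119% and 0.115%), and 1 isoacceptor in LKO (0.191%). The unfiltered WT fits kept control 1. Val-GTY and Lys-AAG were called in every WT comparison, and Lys-AAA, Met, Met_, Thr-ACY and Thr-ACY_ at the low dose. With the filter and without control 1, the low-dose log2 fold changes were 1.03 for Val-GTY, 0.17 for Lys-AAG and -0.27 for Lys-AAA. For Met, Met_, Thr-ACY and Thr-ACY_ they were -0.96, -0.83, -1.29 and -1.17. Without Nrf2 -/- controls 1 and 2 together edgeR called 5 isoacceptors and 1 amino acid, tryptophan (22.4% and 22.6% of all features). In LKO, DESeq2 called 2 isoacceptors (0.572%), and edgeR without LKO replicate 3 called 8 isoacceptors and 2 amino acids, cysteine and tryptophan (1.94% and 1.84%). The log2 ratio of the summed share in LKO to flox was -0.16 for tRNA counts and -0.13 for structural RNA counts.

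With each library left out in turn, the lowest and highest medians were -0.55 and 0.0015 (low), -0.17 and 0.35 (medium), -0.70 and 0.072 (high), -0.40 and 0.17 (any dose), -0.26 and 0.17 (Nrf2 -/-), and 0.16 and 0.45 (LKO). The log2 ratios of the summed share of all counts were -0.31 to 0.16, -0.23 to 0.23, -0.30 to 0.17, -0.29 to 0.18, -0.38 to -0.14 and 0.06 to 0.24 in the same order. For Nrf2 -/- the direction depended on the denominator. As a share of all counts except miRNA the ethanol mean was 31.0% against 30.3% in controls. It was 66.6% against 71.0% of tRNA counts and 63.7% against 67.8% of structural RNA counts. Val-GTG at the low dose ran from -1.51 to 1.04, and at the high dose Val-GTY from -2.49 to 0.25 and the valine sum from -2.24 to 0.25. Calls were 0 to 0 throughout, except 0 to 8 isoacceptors and 0 to 2 amino acids in LKO.

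Replicate numbers were not taken as pairs, since a correlation over 0.1 was required of every same-numbered pair and was found in 10 of 14 in WT, 1 of 4 in Nrf2 -/- and 1 of 4 in LKO. With the replicate block, edgeR called 1 isoacceptor in LKO, Thr-ACY (-1.48), against 0.254% of all features, and 0 in the other comparisons (0.234% at the low dose, 0% elsewhere). Depth limits the rarest entries most, such as Thr-ACY in LKO with 10 to 45 counts.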
